A study of Mus musculus with 6 samples.

Results

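Insulin-like growth factors (IGFs), the proteins that bind them and the growth hormone pathway that drives their production in the liver were followed in mouse liver RNA. The set comprised 10 named genes, found by gene symbol among the 34866 gene identifiers of a count table: the binding proteins Igfbp1, Igfbp2, Igfbp3 and Igfbp4, the ligand Igf1, the acid-labile subunit Igfals, the growth hormone receptor Ghr, the signalling inhibitors Socs2 and Cish, and the transcription factor Stat5b. All 10 passed the filter on low counts that left 13718 genes for testing. Livers came from male C57BL/6 mice aged 8 weeks that had received either iD1, which the labels name by this code alone, or a vehicle, with 3 RNA sequencing libraries in each group. Injection was intraperitoneal, and the labels give neither the dose nor the time before the tissue was taken. The treatment field of the vehicle libraries says that they were not treated, while their titles name a vehicle. No genotype other than the strain is given. Whether each library is a separate mouse is not stated, so p-values reflect the spread between these 6 libraries, which may be technical. Food and water were freely available to all mice.

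Growth hormone from the pituitary binds its receptor on hepatocytes and activates the kinase JAK2, which phosphorylates STAT5B. STAT5B in turn drives transcription of Igf1 and Igfals and of the inhibitors Socs2 and Cish, which damp the same receptor. Circulating IGF-1 is carried mostly in a complex with IGFBP3 and the acid-labile subunit, while IGFBP1 forms small, short-lived complexes and is known as the binding protein that insulin represses and that fasting and stress raise. In male rodents growth hormone is released in pulses.

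Totals ran from 23515571 to 37613549 estimated counts per library, and the members had between 56 counts (Cish, in iD1 replicate 3) and 47216 counts (Igfbp1, in iD1 replicate 2) in a library. One vehicle column carries a number that no sample title has and is called the unnumbered vehicle replicate. The albumin gene Alb, a defining hepatocyte transcript, had 70194 ± 3622 CPM (counts scaled to a library total of 1000000) in iD1 livers and 62981 ± 9771 CPM in vehicle livers (SD, n = 3 each), as fits the labelled tissue.

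Of the 10 members, Igfbp1 and Igfbp4 were higher and Igfals was lower with iD1, and the other 7 did not pass the test. The test was edgeR's quasi-likelihood F test with Benjamini-Hochberg adjustment over all 13718 genes and a threshold of 0.05. The called share of 30% stands beside 16.7% of all tested genes called in either direction, 8.42% higher and 8.3% lower. Of all calls 50.4% were higher, against 24.1% with library size only, where the median of all genes was -0.20, and 38.4% when libraries were scaled by their upper quartile. The members' median log2 fold change was 0.11, and that of all tested genes was 0.00. The groups did not overlap in 3 of the 10 members, against 37.2% of all tested genes. The members' response was thus one very large change, 2 moderate ones and 7 changes within the spread of the libraries.

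**Figure D1:**
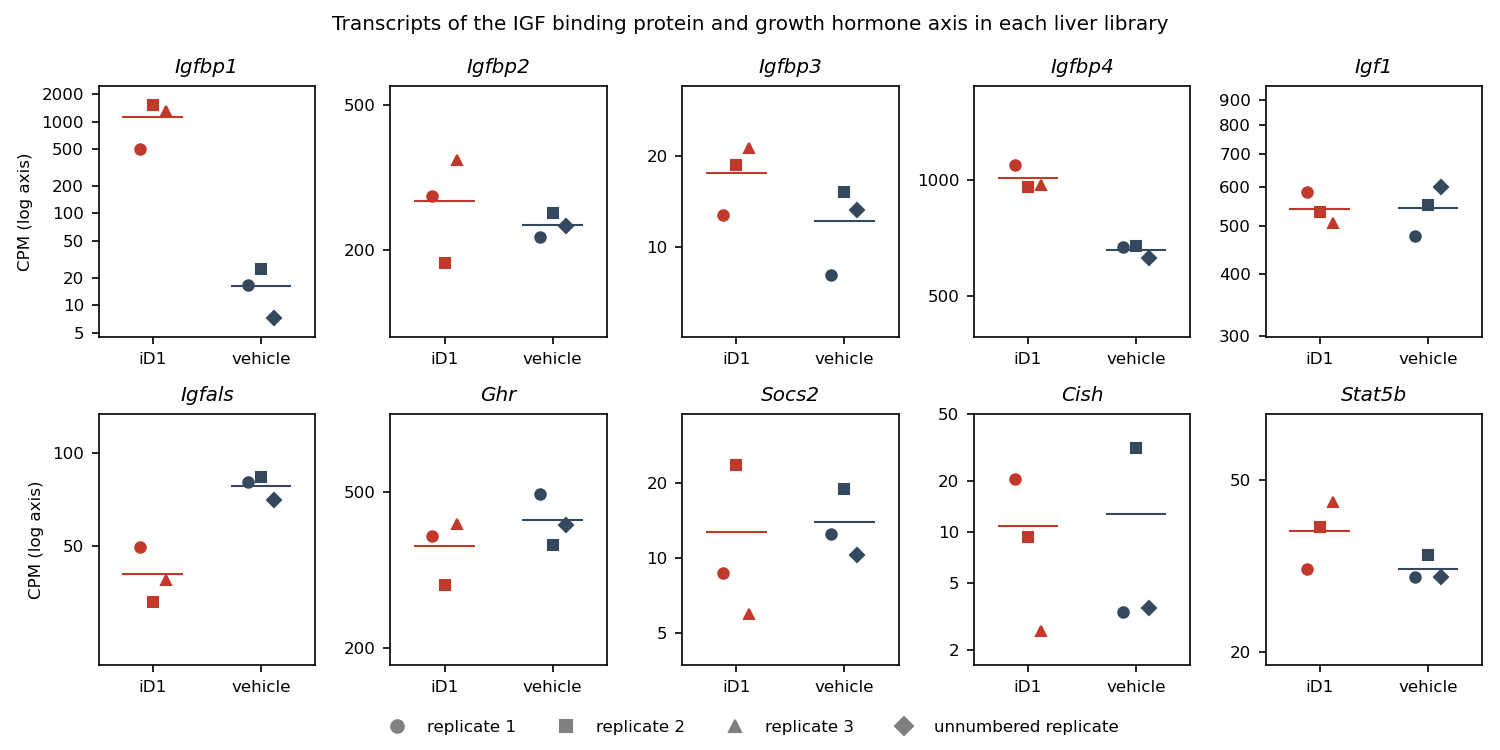
CPM of the 10 transcripts in each library, with 1 panel per gene on its own log axis, iD1 libraries in red on the left and vehicle libraries in dark blue on the right; each symbol is a library and each line a group mean (n = 3). Igfbp1 lies between 505 and 1528 CPM in iD1 livers and between 7.17 and 24.9 CPM in vehicle livers, while Cish spreads over more than the difference between the groups in both.

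Igfbp1, which sequesters IGFs in the circulation and is made mainly by hepatocytes, was the member with the largest change. It had 505, 1528 and 1317 CPM in iD1 replicates 1, 2 and 3, against 16.5, 24.9 and 7.17 CPM in vehicle replicates 1 and 2 and the unnumbered replicate. The lowest iD1 library stood far above the highest vehicle library, and iD1 replicate 1 was the lowest of its group. Its log2 fold change was 6.11 (SE 0.72), a 68.9-fold difference with a 95% interval from 20.1-fold to 236-fold, with an adjusted p of 0.0052 in edgeR's test. It was the 5th largest log2 fold change upward among the tested genes and the 487th smallest p-value, since the libraries within each group also differed. The log2 fold change stayed between 5.75 and 6.56 with any 1 library left out.

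The Igfbp1 gene (ENSMUSG00000020429) is protein-coding and lies on the plus strand of chromosome 11 from 7197782 to 7202546 in GENCODE M21 on GRCm38. Because this gene carried the largest change, the window around its start is shown, from 250 bases before to 50 bases after the start in RefSeq (GRCm38.p6, chr11:7197537-7197836, plus strand). Capitals mark the letters CAAAACA and TATTTTG, the pair of cores of the element through which insulin and FoxO forkhead factors are known to act on this gene.
Igfbp1: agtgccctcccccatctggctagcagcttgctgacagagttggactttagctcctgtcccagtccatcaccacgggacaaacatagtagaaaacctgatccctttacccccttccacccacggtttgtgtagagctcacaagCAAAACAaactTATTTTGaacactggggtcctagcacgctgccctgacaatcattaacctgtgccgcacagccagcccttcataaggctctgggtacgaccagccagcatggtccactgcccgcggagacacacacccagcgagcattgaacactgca
The first core spans positions -108 to -102 and the second positions -97 to -91, counted from the first transcribed base as 0, with 4 bases between them and no overlap. Searched on both strands, CAAAACA was found in 6.28% of 32851 RefSeq windows of this length and TATTTTG in 4.36%. The arrangement with 4 bases between the cores was in 1 window, the one printed. That spacing was read from this window, so the count describes the window and is no test. These are matches of letters, and occupancy by any factor was not measured.

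Igfbp3, which carries most circulating IGF-1 together with the acid-labile subunit, is the closest neighbour of Igfbp1. It lies on the minus strand of chromosome 11 from 7206086 to 7213923, so that 3539 bases separate the ends of the 2 genes. Igfbp3 had 12.8, 18.7 and 21.2 CPM in the iD1 libraries, against 8.12, 15.2 and 13.3 CPM in the vehicle libraries. The groups overlapped, because vehicle replicate 2 and the unnumbered one were above iD1 replicate 1. The difference was 0.52 on the log2 scale (SE 0.26, 95% interval -0.08 to 1.12), with an adjusted p of 0.219 in edgeR's test. That interval ends far below the interval of Igfbp1, which began at 4.33. In rat liver Igfbp3 is known to be made largely by non-parenchymal cells. Of 10 sinusoidal endothelial markers 2 were lower (Gpr182 and Fcgr2b) and 0 higher, with a median log2 fold change of -0.49. This is 20% called, beside 16.7% of all tested genes called in either direction and 8.3% called lower. DESeq2 called 4 lower and 0 higher, and 7, Lyve1 among them, had an unadjusted p under 0.05 in edgeR's test. Clec4g, not called, had 29.1 ± 3.63 CPM in iD1 livers and 38.7 ± 2.32 CPM in vehicle livers (SD, n = 3 each). Stab2, not called either, had 19.2 ± 3.80 CPM and 28.9 ± 9.37 CPM. The endothelial marker Lyve1, named after its values were seen, went the other way without passing the test, at 32.3 ± 11.8 CPM in iD1 livers and 11.9 ± 6.32 CPM in vehicle livers (SD, n = 3 each; adjusted p = 0.139 in edgeR's test), with no overlap between the groups. The summed level of the 10 ran from 189 to 240 CPM in iD1 livers and from 243 to 307 CPM in vehicle livers. Fcgr2b lost its call without iD1 replicate 2 or any 1 vehicle library, at an adjusted p of up to 0.0856 in edgeR's test. Of 8 Kupffer cell markers 0 were called by edgeR, with 3 at an unadjusted p under 0.05, 1 higher by DESeq2 and 0 called by limma-voom. With library size only, or without vehicle replicate 1, 2 of them were lower. Their sum ran from 98.6 to 138 CPM in iD1 livers and from 102 to 172 CPM in vehicle livers. No defining marker of either list was at 0, and the part of these cells in the Igfbp3 values was not tested. In bulk liver RNA, fewer cells of a type and less RNA per cell cannot be told apart.

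Igfbp4, which binds IGFs and restrains their action until the protease PAPPA cleaves it, rose with iD1. It measured 1094, 960 and 973 CPM in iD1 livers, against 671, 677 and 627 CPM in vehicle livers. All 3 iD1 libraries were above all 3 vehicle libraries. Its log2 fold change was 0.62 (SE 0.14), a 1.53-fold difference with an adjusted p of 0.019 in edgeR's test. Leaving out iD1 replicate 3 ended this call (adjusted p = 0.0526 in edgeR's test), as did leaving out vehicle replicate 2 (0.0618) or the unnumbered one (0.0882), with the log2 fold change between 0.56 and 0.64. With library size only it was 0.42 (adjusted p = 0.0959 in edgeR's test). Pappa itself was nearly silent, with 4 counts over the iD1 libraries and 1 count over the vehicle libraries. Igfbp4 lies on chromosome 11 from 99041244 to 99054392, far from Igfbp1.

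Igfbp2, another hepatic binding protein that rises in fasting, had 282, 185 and 353 CPM in iD1 livers, against 218, 253 and 233 CPM in vehicle livers. The iD1 libraries lay on both sides of the vehicle libraries, with iD1 replicate 2 the lowest of all 6 and iD1 replicate 3 the highest. The difference was 0.22 on the log2 scale (SE 0.21, 95% interval -0.26 to 0.70, adjusted p = 0.529 in edgeR's test).

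The gene next to Igfbp2, at a distance of 5457 bases on chromosome 1, is Igfbp5, which was low and not called (log2 fold change -0.87, SE 0.53, adjusted p = 0.323 in edgeR's test). Igfbp5 had 3.75, 1.42 and 4.69 CPM in iD1 livers, against 7.65, 7.23 and 2.82 CPM in vehicle livers. Igfbp6 stayed under 1 CPM in every library. Igfbp7, a related protein of low IGF affinity that endothelial cells make, had 48.6 ± 6.92 CPM in iD1 livers and 47.6 ± 7.61 CPM in vehicle livers (SD, n = 3 each), and shares 85 exon bases with Polr2b on the other strand.

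Within a library, the makeup of the binding protein transcripts was compared as counts per kilobase of annotated exon over Igfbp1 to Igfbp7, which does not depend on scaling between libraries. Igfbp1 made up 42.8%, 73.5% and 64.9% of this sum in the iD1 libraries, against 3.40%, 4.56% and 1.47% in the vehicle libraries. Igfbp1 was thus the most abundant binding protein transcript in each iD1 library and a minor one in each vehicle library. Igfbp4 made up 21.5% ± 9.09 in iD1 livers and 45.0% ± 2.59 in vehicle livers, and Igfbp2 13.8% ± 6.19 and 38.3% ± 1.19 (SD, n = 3 each). The exact two-sided permutation test gave p = 0.1 for the Igfbp1 share, the smallest value that 3 libraries against 3 allow.

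**Figure D2:**
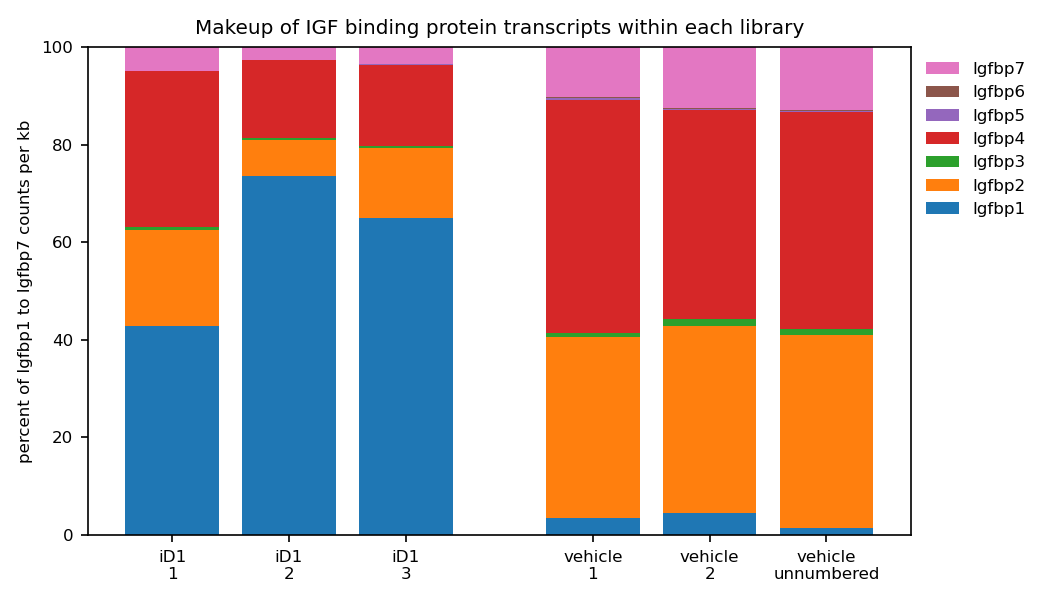
Percent of the counts per kilobase of Igfbp1 to Igfbp7 that each binding protein gene held, as 1 stacked bar for each of the 3 iD1 libraries (left) and 3 vehicle libraries (right). The Igfbp1 part at the bottom of the bar fills 42.8% to 73.5% of the iD1 bars and 1.47% to 4.56% of the vehicle bars.

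The summed level of Igfbp1 to Igfbp7 was 774, 1362 and 1330 CPM per kilobase in iD1 livers, against 318, 358 and 320 CPM per kilobase in vehicle livers. Without Igfbp1, the sum of Igfbp2 to Igfbp7 was 423 ± 55.7 CPM per kilobase in iD1 livers and 321 ± 18.2 CPM per kilobase in vehicle livers (SD, n = 3 each), so most of the added level was Igfbp1. The groups did not overlap in either sum, and each gave p = 0.1 in the exact permutation test.

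Igf1, the liver-derived growth factor that these proteins bind, did not differ detectably. It had 585, 535 and 507 CPM in the iD1 libraries, against 478, 553 and 600 CPM in the vehicle libraries. The ranges overlapped almost completely, and the log2 fold change was 0.00 (SE 0.15, 95% interval -0.34 to 0.33, adjusted p = 0.992 in edgeR's test). The interval corresponds to folds from 0.792 to 1.26. The ratio of Igf1 to the summed binding protein transcripts, both per kilobase, was 0.0515 ± 0.0215 in iD1 livers and 0.166 ± 0.0207 in vehicle livers (SD, n = 3 each; exact permutation p = 0.1, the smallest possible). The ratio was between 0.0385 and 0.0764 in the iD1 libraries and between 0.152 and 0.190 in the vehicle libraries. Per kilobase, Igf1 averaged 54.8 CPM in iD1 livers and 54.9 CPM in vehicle livers, while the binding protein sum averaged 1155 ± 331 CPM and 332 ± 22.8 CPM.

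Igf2, the second IGF ligand, which adult mouse liver hardly expresses, was called higher at a very low level. It had 67 counts over the iD1 libraries and 22 over the vehicle libraries, which is 0.854 ± 0.197 CPM in iD1 livers and 0.210 ± 0.00937 CPM in vehicle livers (SD, n = 3 each). Igf2 was higher by 2.004 on the log2 scale (SE 0.38), with an adjusted p of 0.0083 in edgeR's test. No vehicle library reached 10 counts, so Igf2 passed the filter on low counts only through its iD1 libraries. The filter thus favoured a higher call. On the same strand, 3596 exon bases of Igf2 overlap the predicted gene Gm49394, which had no counts, and 98 on the other strand overlap Igf2os.

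Igfals encodes the acid-labile subunit, which joins IGFBP3 and IGF-1 in the long-lived circulating complex, and its transcript fell. It had 49.5, 32.8 and 38.7 CPM in iD1 livers, against 80.8, 83.8 and 70.1 CPM in vehicle livers. Each iD1 library was below each vehicle library, and iD1 replicate 1 was the nearest to the vehicle group. The log2 fold change was -0.96 (SE 0.16), or 0.515-fold (95% interval 0.403 to 0.659), with an adjusted p of 0.0045 in edgeR's test. The call held without each of the 6 libraries, with log2 fold changes from -1.13 to -0.83. Igfals is a known target of growth hormone, and so is Igf1, whose level did not pass the test in the same libraries. Igfals lies on chromosome 17 from 24865997 to 24882010.

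**Figure D3:**
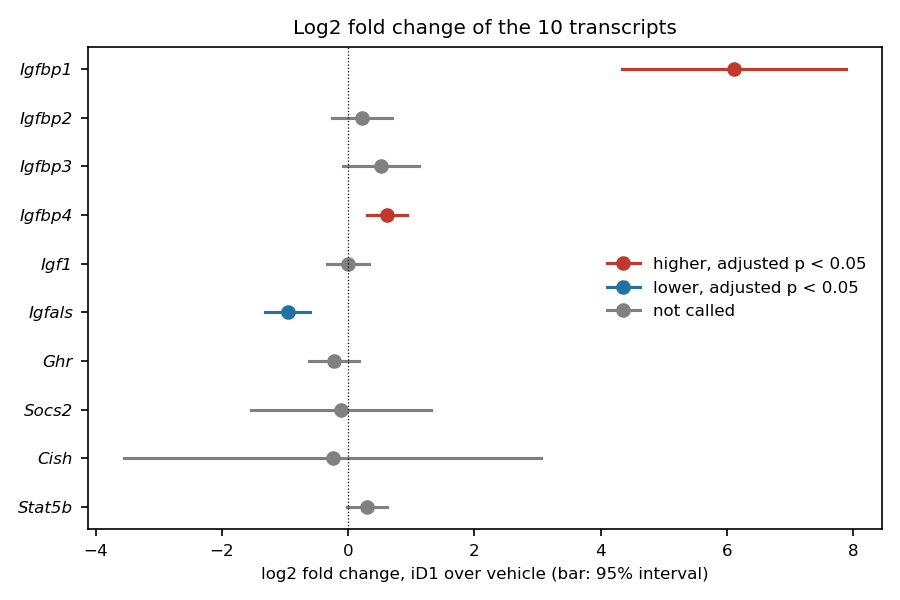
Log2 fold change of each of the 10 transcripts, iD1 over vehicle, with its 95% interval from edgeR's fit as a horizontal bar; red marks genes called higher, blue lower and grey not called. Igfbp1 at 6.11 stands apart from the other members, which lie between -0.96 and 0.62, and the widest interval is that of Cish.

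Ghr, the receptor that starts the pathway, had 386, 290 and 414 CPM in iD1 livers, against 493, 367 and 412 CPM in vehicle livers. The groups overlapped, with a log2 fold change of -0.22 (SE 0.18, 95% interval -0.62 to 0.18, adjusted p = 0.435 in edgeR's test). Stat5b, the transcription factor downstream of the receptor, had 31.2, 38.9 and 44.6 CPM in iD1 livers, against 29.9, 33.5 and 29.8 CPM in vehicle livers. Only iD1 replicate 1 lay within the vehicle range, and the log2 fold change was 0.30 (SE 0.14, adjusted p = 0.188 in edgeR's test). Without iD1 replicate 1 Stat5b was called higher, at 0.43 with an adjusted p of 0.046 in edgeR's test. Its close relative Stat5a, at 9.97 ± 1.32 CPM in iD1 livers and 10.9 ± 1.08 CPM in vehicle livers, and the kinase gene Jak2, at 12.8 ± 2.15 CPM in iD1 livers and 12.6 ± 0.561 CPM in vehicle livers, were not called. Stat5a and Jak2 were chosen after their values were seen, because they act directly between the receptor and Stat5b.

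Cish and Socs2 encode inhibitors that growth hormone induces through STAT5B, and their values spread widely between libraries of 1 group. Cish had 20.6, 9.32 and 2.60 CPM in iD1 livers, against 3.36, 31.5 and 3.52 CPM in vehicle livers. The highest and the lowest of the 6 values were in different groups, and the ranges overlapped. The difference of -0.25 on the log2 scale had a large error (SE 1.25, 95% interval -3.56 to 3.06, adjusted p = 0.919 in edgeR's test). It turned to 1.66 without vehicle replicate 2 and was -1.08 without iD1 replicate 1, so no direction can be read. Exons of Cish share 261 bases with Gm17040 on the other strand, which had at most 0.665 CPM in a library, and 479 bases with the antisense gene Gm17041, not analysed here. How strand was used in counting is not given, so reads of such pairs cannot be told apart.

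Socs2 had 8.71, 23.6 and 5.99 CPM in iD1 livers, against 12.5, 18.8 and 10.3 CPM in vehicle livers. Both the highest and the lowest libraries were iD1 libraries, and the log2 fold change was -0.11 (SE 0.57, 95% interval -1.54 to 1.32, adjusted p = 0.919 in edgeR's test). Leaving out iD1 replicate 2 gave -0.93, and leaving out iD1 replicate 3 gave 0.22. The library with the most Socs2 in vehicle, replicate 2, also had the most Cish there, whereas in iD1 replicate 2 had the most Socs2 and replicate 1 the most Cish.

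The start of Cish is shown because it holds the letters TTCNNNGAA, the consensus that STAT5 proteins bind, in a RefSeq window on the plus strand (GRCm38.p6, chr9:107296409-107296708). Capitals mark the matches.
Cish: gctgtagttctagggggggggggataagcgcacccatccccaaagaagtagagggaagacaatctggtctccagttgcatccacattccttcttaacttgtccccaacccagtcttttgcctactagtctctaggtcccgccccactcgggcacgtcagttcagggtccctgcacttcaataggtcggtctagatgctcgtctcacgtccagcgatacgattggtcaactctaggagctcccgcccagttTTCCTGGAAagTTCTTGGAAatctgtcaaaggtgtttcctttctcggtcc
The matches span positions 0 to 8 and 11 to 19, with the first transcribed base as 0, and do not overlap. Windows were found for 9 of the 10 members, 14 windows in all, and the motif reads the same on both strands. Only Cish and Igfals held a match among these members. The Igfals matches lie in 2 of its 3 windows, at positions -236 to -228 of one start and -58 to -50 of another. Of all 32851 windows, 8.30% held the motif. Cish and Igfals thus share the letters, while Igfals fell and Cish showed no direction.

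Levels can be set side by side between members only per kilobase of annotated exon. In iD1 livers the order was Igfbp1 (732 ± 354 CPM per kilobase), Igfbp4 (228 ± 16.7), Igfbp2 (148 ± 45.6), Igf1 (54.8 ± 3.998), Ghr (40.1 ± 7.15) and Igfals (12.7 ± 2.68), followed by Stat5b, Igfbp3, Cish and Socs2, each under 10 CPM per kilobase. In vehicle livers it was Igfbp4 (149 ± 6.13 CPM per kilobase), Igfbp2 (127 ± 9.67), Igf1 (54.9 ± 6.22), Ghr (46.8 ± 7.04), Igfals (24.7 ± 2.28) and Igfbp1 (10.6 ± 5.81), followed by the same 4 genes (SD, n = 3 each). The ranges over libraries overlapped between Stat5b and Igfbp3 and between Cish and Socs2 in iD1 livers. In vehicle livers neighbours in the order overlapped between Igf1 and Ghr, Igfbp1 and Stat5b, Igfbp3 and Cish, and Cish and Socs2. The vehicle range of Igfbp1 (4.70 to 16.3 CPM per kilobase) also overlapped those of Igfbp3 (up to 4.85) and Cish (up to 4.90). By annotated exon length, Igfbp1 had rank 1 in iD1 livers and rank 6 in vehicle livers. The order of the other 9 by that length was the same in both groups. Using the longest transcript shortens members unequally, from 9053 to 4175 bases in Ghr and from 9904 to 7052 bases in Igf1. Neighbours can therefore change places with the length used, and the order by longest transcript was not tested.

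The genes around the axis were taken from lists that overlap in part and hold 98 genes besides the members. These lists were chosen with earlier results of these data known, so their called shares are descriptions and no independent tests. Of the 80 tested, 15 were higher and 5 lower, which is 25% called beside 16.7% of all tested genes, with a median log2 fold change of 0.06. With library size only the split was 11 higher and 9 lower. Without 1 library the called genes numbered between 11 (without iD1 replicate 3) and 25 (without iD1 replicate 1), and there were 13 when either vehicle replicate 1 or the unnumbered one was left out. In all 6 such fits, 10 of the 20 kept their call. Cell type markers and the members were counted separately.

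**Figure D4:**
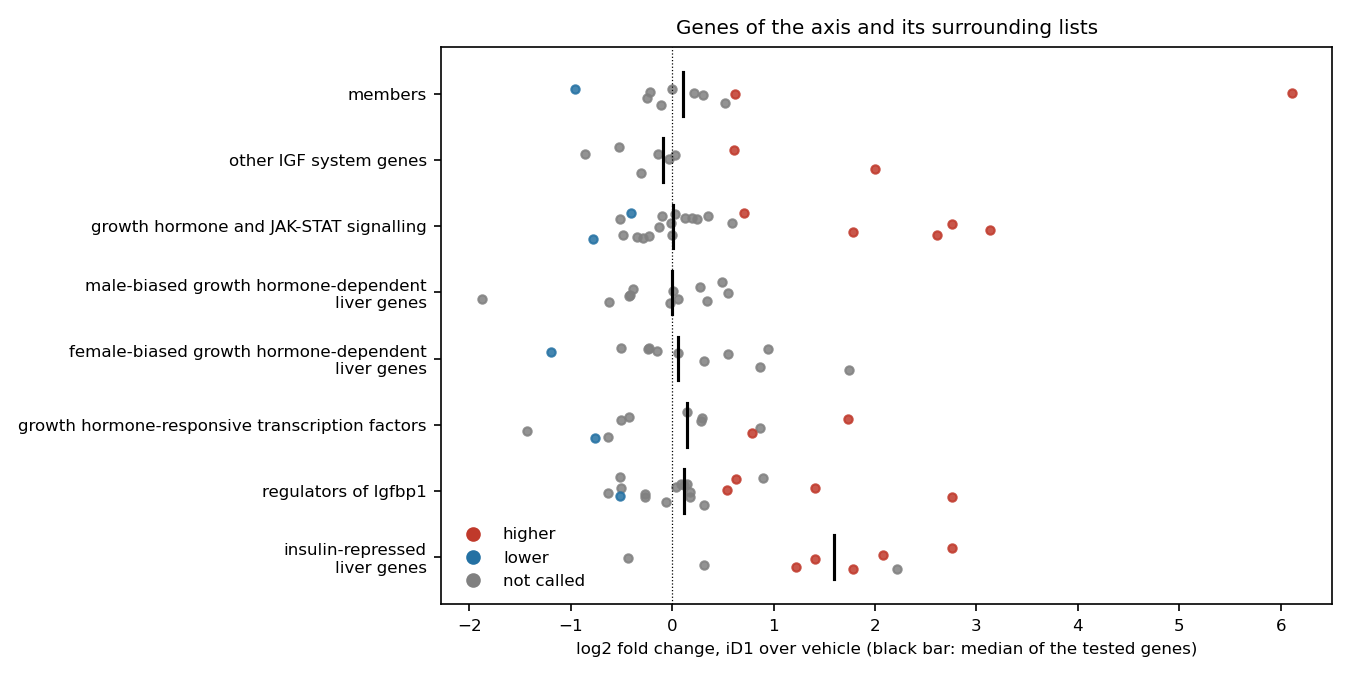
Log2 fold change, iD1 over vehicle, of every tested gene in the member set and in each of 7 surrounding lists, 1 dot per gene with red for higher, blue for lower and grey for not called; a black bar is the list's median. The insulin-repressed list has the median farthest to the right, 1.59, while the medians of the other lists and of the members lie between -0.09 and 0.14. All lists were chosen with earlier results of these data known.

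Among other genes of the IGF system, 2 of 8 tested were higher and 0 lower: Igf2 and Furin, a protease that processes many precursor proteins. That is 25% called beside 16.7% of all tested genes, and Igf2 entered the test only through its iD1 libraries. Furin had 172 ± 12.9 CPM in iD1 livers and 113 ± 16.5 CPM in vehicle livers (SD, n = 3 each), a call that ended when any of 3 libraries was left out (iD1 replicate 3, vehicle replicate 1 and the unnumbered vehicle one), at an adjusted p of up to 0.0834 in edgeR's test. The IGF-2 clearance receptor gene Igf2r had 22.4 ± 4.30 CPM in iD1 livers and 22.9 ± 3.45 CPM in vehicle livers. The list's median log2 fold change was -0.09.

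In the list of growth hormone and JAK-STAT signalling, 5 of 22 tested genes were higher and 2 lower. The share called was 31.8%, beside 16.7% of all tested genes. Stat3, the transcription factor of interleukin 6 and leptin receptors, had 171 ± 26.3 CPM in iD1 livers and 49.8 ± 6.50 CPM in vehicle livers. The leptin receptor gene Lepr had 17.0 ± 2.93 CPM in iD1 livers and 2.75 ± 0.623 CPM in vehicle livers, and the phosphatase gene Ptpn1, whose product dephosphorylates JAK2 and the insulin receptor, had 29.5 ± 3.94 CPM and 18.02 ± 2.13 CPM (SD, n = 3 each). These 3 calls held without each of the 6 libraries.

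Socs3, an inhibitor induced by STAT3, had 33.2 ± 26.7 CPM in iD1 livers and 3.77 ± 1.48 CPM in vehicle livers. It was called higher, at 3.13 on the log2 scale (SE 0.70, adjusted p = 0.044 in edgeR's test). Its call held without iD1 replicate 2 and was lost without any other library, at an adjusted p of up to 0.134 in edgeR's test. The insulin receptor substrate gene Irs2 had 40.7 ± 7.62 CPM in iD1 livers and 5.97 ± 3.42 CPM in vehicle livers. That call was lost without iD1 replicate 2, iD1 replicate 3 or vehicle replicate 1 (adjusted p up to 0.065 in edgeR's test). The receptor-like Sirpa and the phosphatase gene Ptpn6 were lower, and Ptpn6 lost its call without each of the 6 libraries in turn, at an adjusted p of up to 0.144 in edgeR's test. Ptpn11, another phosphatase gene of the pathway, had 52.4 ± 2.04 CPM in iD1 livers and 52.7 ± 7.01 CPM in vehicle livers. So the inhibitor gene of the STAT3 branch was called, and those of the STAT5B branch, Cish and Socs2, were not; a difference between these genes was not tested.

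Genes that differ between male and female mouse liver under growth hormone were counted in the same way. Of 12 male-biased genes, 0 were called by edgeR, with 2 at an unadjusted p under 0.05. DESeq2 called 1 higher and 1 lower, and limma-voom called 1 lower; without iD1 replicate 1 or 3, or with a filter of 1 CPM, edgeR called 1. The shares of 0% of the male-biased and 9.09% of the female-biased genes stand beside 16.7% of all tested genes, and no test of that difference was made. The major urinary protein gene Mup20, one of a family of near-identical copies whose single values are uncertain, had 7141 ± 1991 CPM in iD1 livers and 7086 ± 3163 CPM in vehicle livers. The cytochrome gene Cyp2d9, also one of several close copies, had 1375 ± 253 CPM in iD1 livers and 939 ± 56.1 CPM in vehicle livers. The steroid dehydrogenase gene Hsd3b5, chosen after its values were seen, had 22.8, 15.3 and 41.2 CPM in iD1 livers, against 145, 63.2 and 82.8 CPM in vehicle livers. Its groups did not overlap, and its log2 fold change of -1.88 (SE 0.48) missed the threshold at an adjusted p of 0.054 in edgeR's test. Of 11 tested female-biased genes, the acyl-CoA thioesterase gene Acot3 was lower, at 7.23 ± 0.962 CPM in iD1 livers and 16.5 ± 4.58 CPM in vehicle livers (SD, n = 3 each), and 0 were higher. The steroid enzyme gene Cyp17a1 had 13.6 ± 5.51 CPM in iD1 livers and 16.1 ± 9.64 CPM in vehicle livers, and the prolactin receptor gene Prlr had 65.6 ± 11.0 CPM and 76.7 ± 23.4 CPM.

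Of the liver transcription factors that work beside STAT5B, 2 of 11 were called higher and 1 lower. This is 27.3% called, beside 16.7% of all tested genes, 8.42% higher and 8.3% lower. Cebpb had 236 ± 28.7 CPM in iD1 livers and 70.9 ± 20.4 CPM in vehicle livers, and Cebpa, its relative, had 159 ± 31.3 CPM and 269 ± 14.5 CPM (SD, n = 3 each). Hnf4a had 731 ± 94.8 CPM in iD1 livers and 424 ± 116 CPM in vehicle livers, but kept its call only without iD1 replicate 1 and lost it without any other library (adjusted p up to 0.108 in edgeR's test). Cebpa lost its call without iD1 replicate 3 (adjusted p = 0.0511 in edgeR's test). Nr1i3 had 191 ± 34.5 CPM in iD1 livers and 157 ± 24.6 CPM in vehicle livers, and Foxa3 47.6 ± 18.5 CPM and 43.1 ± 9.95 CPM.

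Known regulators of Igfbp1 were called in 5 of 19 cases, 4 higher and 1 lower, which is 26.3% beside 16.7% of all tested genes. Of the called genes, Irs2 is also in the signalling list, and Irs2 and Ppargc1a are also in the insulin-repressed list. The coactivator gene Ppargc1a had 18.5 ± 7.57 CPM in iD1 livers and 6.94 ± 0.782 CPM in vehicle livers. The fasting-related factors Ppara, with 85.2 ± 18.3 CPM in iD1 livers and 55.2 ± 5.21 CPM in vehicle livers, and Creb3l3, with 245 ± 21.7 CPM and 168 ± 3.22 CPM, were also higher. The glucocorticoid receptor gene Nr3c1 was lower, at 51.2 ± 5.40 CPM in iD1 livers and 73.1 ± 9.14 CPM in vehicle livers. Ppargc1a and Ppara each lost their call without any of 5 libraries, and Creb3l3 and Nr3c1 each without any of 4, at adjusted p-values of up to 0.115 in edgeR's test. The transcription factor gene Atf4 had 74.9 ± 9.12 CPM in iD1 livers and 90.2 ± 5.91 CPM in vehicle livers, and the insulin receptor gene Insr had 98.2 ± 8.07 CPM and 79.1 ± 9.97 CPM, neither called.

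Of the 8 tested genes that insulin represses, a list without Igfbp1, 5 were higher and 0 lower, with a median log2 fold change of 1.59. That is 62.5% called, beside 16.7% of all tested genes. Because the list was chosen with earlier results of these data known, this contrast is a description and no independent test. Irs2, Ppargc1a and Insr are also in the list of regulators of Igfbp1, so these lists are not independent. Leaving out iD1 replicate 2, iD1 replicate 3 or vehicle replicate 1 lowered the 5 called to 3. The kinase-like Trib1 had 69.8 ± 3.34 CPM in iD1 livers and 29.9 ± 4.70 CPM in vehicle livers, and Pck1 and G6pc, enzymes of glucose production, had log2 fold changes of 2.08 (SE 0.23) and 1.78 (SE 0.28). These 3 held their calls without each library, while those of Irs2 and Ppargc1a did not. Pdk4, a brake on pyruvate oxidation, had 44.4 ± 33.8 CPM in iD1 livers and 9.58 ± 2.71 CPM in vehicle livers and was not called (adjusted p = 0.084 in edgeR's test). Insr was not called either, and Sesn3, a stress-response gene named after its values were seen, was lower in mean without passing the test, at 14.1 ± 2.61 CPM in iD1 livers and 19.0 ± 3.23 CPM in vehicle livers (SD, n = 3 each; adjusted p = 0.121 in edgeR's test).

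The hormone genes of the axis outside the liver were silent, as the tissue label implies: of 7 such genes in the table, which include Gh, Ghrh and Prl, 5 had no count and none of the 7 passed the filter.

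The transcripts whose pattern over the 6 libraries was most like that of Igfbp1 were Gadd45g, Cxcl1, Fbf1, Hspa1a and Rgs16, with predicted genes left out. Likeness was the root mean square difference of log2(CPM + 1) after centring each gene on its mean, and it ran from 0.84 for Gadd45g to 1.12 for Rgs16. Gadd45g, a stress-induced growth arrest gene, had 146 ± 48.0 CPM in iD1 livers and 5.91 ± 4.05 CPM in vehicle livers (SD, n = 3 each). Like Igfbp1, Gadd45g had its lowest iD1 value in replicate 1 and its highest in replicate 2, and its highest vehicle value in replicate 2. Hspa1a has a near-identical copy, so its single value is uncertain. The genes most like Igf1 were the flat transcripts Sdad1, Dynlt1a, Ctnnd2, Kpna1 and Slc7a14, at a difference of 0.03 to 0.04, and Dynlt1a, Ctnnd2 and Slc7a14 were under 1 CPM, where the added 1 flattens any pattern.

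Markers of other cells were compared beside these results. Of 6 neutrophil markers 4 were tested, and 3 were higher (Retnlg, S100a8 and S100a9) while Cxcr2 was not called. The other 2 were too low to test: Mpo had 0 counts over the iD1 libraries and 8 over the vehicle libraries, and Ly6g had 0 and 2. Retnlg, S100a8 and S100a9 passed the filter on low counts only through their iD1 libraries, with 2, 9 and 23 counts over the vehicle libraries. The filter thus favoured a higher call, so 3 of 4 cannot be set against the 8.42% of all tested genes called higher. The list had a summed level of 2.74 to 10.4 CPM in iD1 livers and 0.699 to 1.197 CPM in vehicle livers. S100a8 lost its call when either vehicle replicate 1 or the unnumbered one was left out and S100a9 without iD1 replicate 3 or any 1 vehicle library, at adjusted p-values of up to 0.15 in edgeR's test. Of 10 stellate cell markers 1 was lower, the retinol acyltransferase gene Lrat, with 199 to 266 CPM summed in iD1 livers and 211 to 282 CPM in vehicle livers. The share called was 10%, beside 16.7% of all tested genes. In edgeR's test 3 had an unadjusted p under 0.05, and DESeq2 and limma-voom each called 2 lower. Dcn, not called, was the largest part of the sum, at 123 ± 17.4 CPM in iD1 livers and 128 ± 26.3 CPM in vehicle livers (SD, n = 3 each). The sum can thus hide falls in other markers. Of 5 tested cholangiocyte markers Sox9 was higher and Krt19 lower, and their list summed to 28.1 to 45.7 CPM in iD1 livers and 23.1 to 36.9 CPM in vehicle livers. This is 40% called, beside 16.7% of all tested genes, with a median log2 fold change of -0.40. Most of the sum was Spp1, not called, at 24.2 ± 10.1 CPM in iD1 livers and 22.6 ± 6.49 CPM in vehicle livers (SD, n = 3 each). Krt19 had 0.184 ± 0.0935 CPM in iD1 livers and 1.23 ± 0.134 CPM in vehicle livers (SD, n = 3 each) and kept its call without each library, while Sox9 kept its call only without iD1 replicate 3 (adjusted p up to 0.125 in edgeR's test). No iD1 library reached 10 counts of Krt19, so Krt19 passed the filter on low counts only through its vehicle libraries. For Krt19 the filter thus favoured a lower call.

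Of 8 hepatocyte markers Fgb and Apoa1 were higher, and the list summed to 102504 to 114134 CPM in iD1 livers and 77916 to 102180 CPM in vehicle livers. The share called was 25%, beside 16.7% of all tested genes called in either direction and 8.42% called higher. Fgb, a fibrinogen chain gene, had 8153 ± 3829 CPM in iD1 livers and 2224 ± 74.1 CPM in vehicle livers (SD, n = 3 each), and Apoa1 lost its call without each of the 6 libraries in turn (adjusted p up to 0.142 in edgeR's test). Of 5 blood markers edgeR called 0, with 2 at an unadjusted p under 0.05, 1 higher by DESeq2 and 0 by limma-voom, a median log2 fold change of 0.62 and sums of 287 to 337 CPM in iD1 livers and 178 to 302 CPM in vehicle livers. Of 2 tested lymphocyte markers edgeR, DESeq2 and limma-voom each called 0, with 0 at an unadjusted p under 0.05. The part of these cells in the values of the axis was not tested.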

How the data were processed

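Polyadenylated RNA was sequenced from 6 liver libraries prepared with a stranded mRNA kit, per the labels' protocols. The deposited file holds estimated counts for each gene, before any scaling, and in it 22.6% to 27.7% of the values of a library were not whole. Neither the aligner, quantifier and strand setting nor the build and annotation are stated in the labels. Counts were rounded. Symbols matched 34582 of 34866 identifiers, and positions and exon lengths come from GENCODE M21 (GRCm38), which held 99.4% of the identifiers without version. Columns were assigned by name.

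Genes were kept by filterByExpr (minimum count 10, minimum total 15), scaled by TMM and tested with edgeR 4.0.16 in R 4.3.3 (robust quasi-likelihood F test, two-sided, adjusted p under 0.05 over 13718 genes). SE is the log2 fold change divided by the square root of F, and 95% intervals use the test's degrees of freedom. CPM uses TMM-scaled totals. DESeq2 1.42.0 and limma 3.58.1 were alternatives. The test was tested on simulated data. Counting intervals were not used, since the spread between libraries is larger.

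The members and lists were chosen with earlier results of these data known. The rule for named genes took all members, up to 5 called genes per list and direction by p, and up to 2 uncalled genes per list by mean CPM. It also took the 5 genes most like Igfbp1 and the 5 most like Igf1. Genes named after their values were seen are marked as such. Igfbp5, Igfbp6, Pappa, Mpo, Ly6g, the hormone genes and genes that overlap others were also named outside the rule. Some uncalled marker genes that the rule took are not printed. No library pair of a group agreed within sampling noise. Replicate numbers 1 and 2 occur in both groups, but nothing in the labels ties them together.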

Additional observations from a re-analysis of the deposited data

How the results depend on the processing

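Igfbp1 was called higher and Igfals lower under all 18 alternatives, with log2 fold changes from 5.44 to 6.56 and from -1.15 to -0.83. Igfbp4 kept its direction (0.42 to 0.64) and lost its call under 7: a threshold of 0.01 (adjusted p = 0.0191 in edgeR's test), a test against a fold of 1.2 (0.061), library size only (0.0959), the replicate block (0.166), and leaving out 1 of 3 libraries (iD1 replicate 3, vehicle replicate 2, unnumbered vehicle). Library size only shifted all genes to a median of -0.20 (log2), with 24.1% of the calls being higher (38.4% with upper-quartile factors, 50.4% with TMM). Ghr and Igfbp3 kept their direction and were never called. Stat5b was called under 1 alternative, given above.

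Over all genes 2293 were called, 825 at a threshold of 0.01, 1278 against a fold of 1.2, and 1212 to 2574 without 1 library. Of the list genes 20 were called, 10 at 0.01, 13 against a fold of 1.2 and 11 to 25 without 1 library. Deviations of same-numbered libraries correlated at 0.21 for number 1 and -0.16 for number 2, so the numbers are not taken as pairs. With the replicate block, which uses only the 4 libraries numbered 1 and 2, 768 genes and 2 members were called.

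Directions of uncalled members turned as follows. Igf1 was 0.0018 with DESeq2, 0.0006 with DESeq2 size factors, 0.0017 with limma-voom, 0.1236 with the replicate block, and -0.0873 to 0.0695 without 1 library. Cish was 0.0841 with limma-voom, 0.3324 with the block and -1.083 to 1.6568 without 1 library. Igfbp2 was -0.0400 with the block and -0.0072 to 0.4273 without 1 library, and Socs2 -0.9259 to 0.2231. The cause was not tested.

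The difference in the Igfbp1 share, iD1 minus vehicle, was 57.3 percentage points, and 41.7 to 66.1 under the alternatives. That of the Igf1 ratio was -0.114 and moved to -0.331 with counts not divided by length. Exon lengths from the longest transcript, added after the data were seen, gave 53.2 points and -0.123. The 3 libraries a group set the precision: the interval of Cish spans both directions.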
